A study of Mus musculus with 18 samples.

Results

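The comparison described here is the loss of Brca1 in mammary tumors in which the RB proteins and p53 were already disabled. Its members are given by the sample labels, and it covers 10 of the 18 libraries of the series, 5 tumors labelled with Brca1, Rbf and p53 (called B1/P/Rbf) and 5 labelled with Rbf and p53 (called P/Rbf), each from a different female mouse on a C57Bl/6 J background. The B1/P/Rbf mice were Brca1 fl/fl, Trp53 fl/fl and TgK18GT121 Tg/+, and the P/Rbf mice were Trp53 fl/fl and TgK18GT121 Tg/+, so that the deletion of Trp53 and the T121 transgene were shared and the floxed Brca1 alleles were the only labelled difference. Recombination was started in adult mice by adenovirus carrying Cre, injected into the mammary ducts. The K18 promoter restricts T121 to cells that make keratin 18, and cells that Cre did not reach keep their alleles intact, so a whole tumor also holds stroma without these changes. The floxed alleles were made in other strains and bred into C57Bl/6 J, so the DNA beside them can be of another origin. The other 8 libraries, from 5 tumors with only Brca1 and Trp53 deleted (B1/P) and 3 normal mammary glands, entered the fit and are given as background.

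BRCA1 repairs broken DNA by homologous recombination and protects stalled replication forks, and its inherited loss predisposes to breast cancer. The RB proteins pRb, p107 and p130 hold back the E2F factors that switch on genes of DNA replication and division, and T121, a fragment of the SV40 large T antigen, binds and inactivates all of them. With p53 also gone, cells with damaged DNA are neither arrested nor removed as they otherwise would be.

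Whole tumors were sequenced, so a lower level of a gene in one group can mean fewer cells of a type or less RNA per cell, and these cannot be told apart. Library depth was 27661173 to 37794889 expected counts over the 18 samples. Levels are given as CPM, the counts of a gene scaled to the size of its library after TMM normalization, in the order of tumors 1 to 5 of each group. A gene was called when its p from edgeR's quasi-likelihood test, after Benjamini-Hochberg adjustment over all genes, did not exceed 0.05, and its p measures the difference against the spread between mice. The epithelial markers Epcam, Krt8, Krt18, Cdh1 and Cldn4 summed to 2820 to 5407 CPM in B1/P/Rbf tumors and 4181 to 8527 CPM in P/Rbf tumors, above the 1461 to 1909 CPM of the glands, and 0 of the 5 were called by edgeR, DESeq2 or limma-voom, with 2 lower at an unadjusted p under 0.05.

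Brca1 itself (chr11:101488764-101551955 on the minus strand of GRCm38) was measured first, as the gene in which the labels differ. B1/P/Rbf tumors had 21.1, 27.8, 45, 27.9 and 26.9 CPM and P/Rbf tumors had 44.9, 111, 66.5, 116 and 55.9 CPM. Of the B1/P/Rbf tumors, 4 of 5 lay below every P/Rbf tumor, and B1/P/Rbf tumor 3 was level with P/Rbf tumor 1. The log2 fold change of B1/P/Rbf relative to P/Rbf was −1.41 with a standard error of 0.36, which did not pass over all genes (adjusted p = 0.0903 in edgeR, 0.00841 to 0.517 over the alternative fits; exact two-sided permutation p = 0.0159 for the 10 tumors). B1/P tumors had 8.13 to 27.9 CPM and normal glands 4.61 to 5.99 CPM. The level of B1/P/Rbf tumor 3 was thus not apart from those of P/Rbf tumors, and the study describes the loss of Brca1 in this tumor as partial. Without B1/P/Rbf tumor 3 the Brca1 log2 fold change was −1.61 (adjusted p = 0.0861 in edgeR). Whole-gene counts include the exons that Cre leaves in place, so the counts do not tell intact from deleted Brca1. The B1/P/Rbf tumors are named by their labels throughout.

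Neither Brca1 nor any other engineered gene was called in edgeR. Trp53 had 9.82 to 19.7 CPM in B1/P/Rbf and 8.86 to 13.8 CPM in P/Rbf tumors (log2 fold change 0.44, adjusted p = 0.531), below the 54.4 to 71.8 CPM of the glands. Krt18, whose promoter drives T121, had 614 to 1515 against 662 to 3817 CPM and overlapped (log2 fold change −1.06, standard error 0.42, adjusted p = 0.221). The targets of T121 had log2 fold changes of −0.40 for Rb1, −0.17 for Rbl1 (p107) and 0.11 for Rbl2 (p130), and none of them was called (adjusted p = 0.559, 0.837 and 0.883).

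Few genes passed the adjusted threshold in the main fit. Of 19186 genes tested, 54 were called, or 0.281%, of which 42 were higher in B1/P/Rbf tumors (0.219%) and 12 lower (0.0625%). At an unadjusted p under 0.05 there were 1547 genes higher (8.06%) and 1536 lower (8.01%). The median log2 fold change over all genes was −0.01. All 5 B1/P/Rbf tumors lay above all 5 P/Rbf tumors in 328 genes (1.71%) and below them in 251 (1.31%), and 42 of the 54 called genes were among these 579.

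The number of calls moved with the setting. DESeq2 called 1014 genes, 587 higher (3.06%) and 427 lower (2.23%), with all 54 among them, and limma-voom with quantile normalization called 26, with 16 of the 54. A fit of only the 10 tumors called 0 genes, with 2791 at an unadjusted p under 0.05. All B1/P/Rbf tumors fall in one and all P/Rbf tumors in the other of the 2 sets of libraries that an earlier analysis of these data inferred, so set and genotype cannot be told apart except through the B1/P tumors, and with a term for the sets 5 genes were called, of which C2cd3 was among the 54. With this term the log2 fold changes of Trp53, Rbl1, Mad2l1, Gadd45a, Rbx1, Cenpe, Areg, Cgas and H2-Ab1, which are given below and were not called, changed sign. Without P/Rbf tumor 2 there were 8 calls and without P/Rbf tumor 4 there were 9. Leaving out B1/P/Rbf tumor 1, 2, 4 or 5 gave 29, 17, 131 and 22 calls, and leaving out B1/P/Rbf tumor 3, the tumor with partial loss, gave 71, of which 47 were among the 54. With each of the 10 tumors left out in turn 6 genes remained called every time, Gng12, Dennd2a, Scara3, Reg3b, Stard4 and C130046K22Rik. The other 48 lost the call at least once, with an adjusted p of at most 0.115, and the number of these 10 fits that kept a call is given with the genes below as "of 10 fits". In 19 of the 54 leaving out 1 tumor shrank the fold by over 1.5 times, and in 0 the direction turned.

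The rises were not even among the tumors, and 10 of the 42 higher genes reached the low-count filter only through the B1/P/Rbf tumors. B1/P/Rbf tumor 4 was the lowest of its group in 25 of the 42 higher genes, against 20.9% over all genes, while tumor 2 was the highest in 17 and tumor 5 in 13. Log2 fold changes of the called genes ran from 1.16 to 12.48 and from −0.93 to −6.68. In 11 of the 42 higher genes every B1/P tumor also lay above every P/Rbf tumor, among them Scara3, Dennd2a, Tet1, Heph, Gspt2, Slc12a4 and Cd36. Every normal gland, with Brca1 intact, lay above every P/Rbf tumor in 21 of the 42, and all of these 11 were among them. For the counts against B1/P tumors and glands no share over all genes is given. In 13 of the 42 no B1/P tumor exceeded the highest P/Rbf tumor. For the 12 lower genes, every B1/P tumor was below every P/Rbf tumor in 6 and none was below the lowest P/Rbf tumor in 5.

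**Figure D1:**
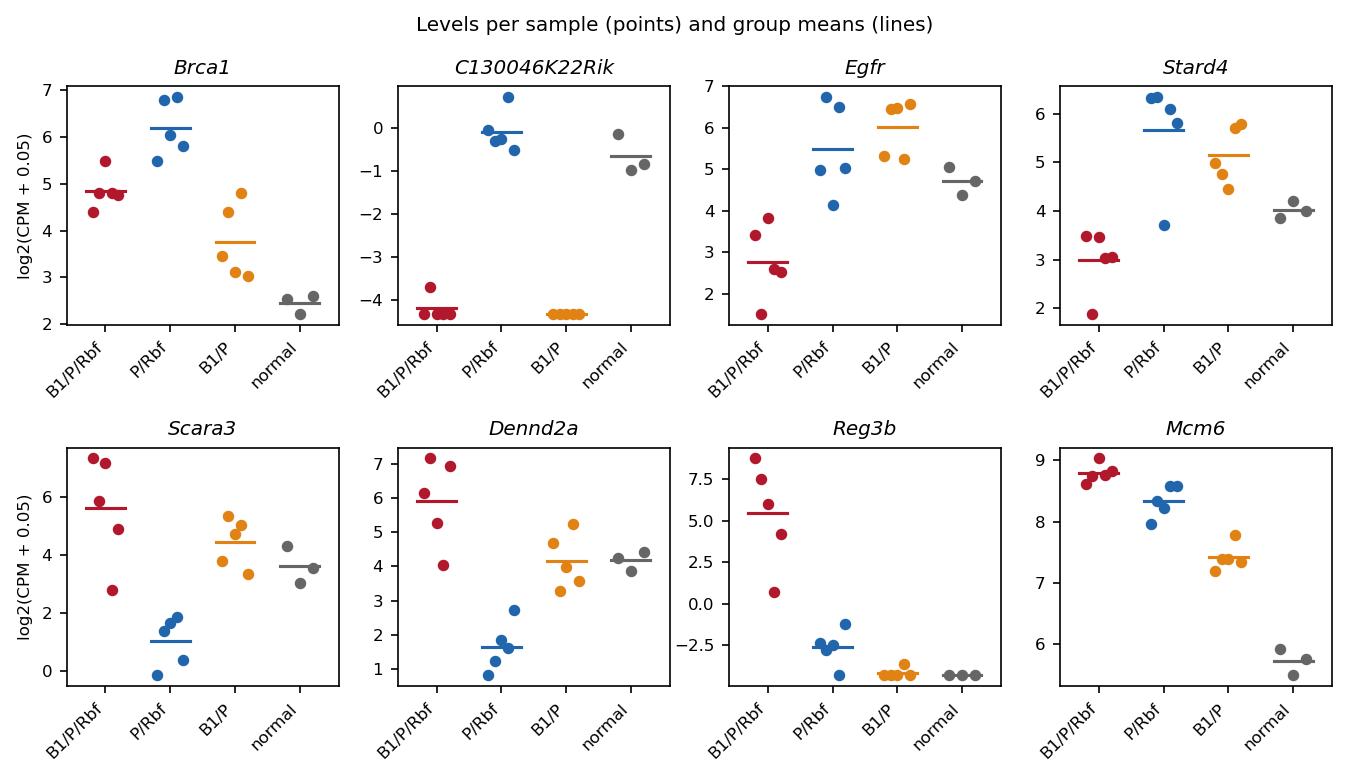
Levels of 8 genes, as log2(CPM + 0.05), in B1/P/Rbf, P/Rbf, B1/P and normal samples, with 1 point per mouse and the group mean as a line. Brca1 overlaps in 1 tumor, C130046K22Rik is at or near 0 in the 10 tumors labelled with deleted Brca1, Egfr and Stard4 lie lower in B1/P/Rbf than in P/Rbf tumors, Scara3, Dennd2a and Reg3b lie higher than in P/Rbf tumors, and Mcm6, which was not called, lies above the P/Rbf tumors by less than 1 log2 unit.

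Several of the higher genes belong to motile cilia. Motile cilia beat through dynein arms on a ring of microtubule doublets (the axoneme), and FOXJ1, with RFX factors that bind X-box sequences in promoters, switches on the genes that build them. The mammary ducts are not a ciliated epithelium of this kind. Called genes of this group, picked out after their values were seen, were Ccdc40, Dnah2, Dnali1, Cfap43, Cfap53, Cfap77, Nek5, Pifo and Ttc21a. For 8 of these 9 a RefSeq promoter window was at hand (250 bases before to 50 after the start, GRCm38.p6). The stretches shown are those upstream of the start in which a letter match was found on either strand, with the match in capitals, to an X-box element (GTTGCC or GTTGCTA) or the forkhead core (TGTTTAC), and Pifo has a window for each of its annotated starts.
Pifo, chr3:106001498-106001577, minus strand: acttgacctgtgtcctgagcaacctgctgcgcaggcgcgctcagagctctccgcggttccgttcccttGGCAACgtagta
Pifo, chr3:106014734-106014813, minus strand: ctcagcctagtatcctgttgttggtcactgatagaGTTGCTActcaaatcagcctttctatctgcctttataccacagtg
Nek5, chr8:22125190-22125269, minus strand: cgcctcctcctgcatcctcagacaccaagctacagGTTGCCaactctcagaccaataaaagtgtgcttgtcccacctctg
Ttc21a, chr9:119937526-119937605, plus strand: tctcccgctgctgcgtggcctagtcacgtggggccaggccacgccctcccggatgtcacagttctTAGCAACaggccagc
Cfap43, chr19:47837372-47837451, minus strand: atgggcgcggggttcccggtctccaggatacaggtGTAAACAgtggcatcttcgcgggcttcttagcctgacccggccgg

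GTTGCC was found in 3 of the 8 called genes with a window (Nek5, Pifo and Ttc21a), GTTGCTA in 2 (Pifo and Ttc21a) and TGTTTAC in 1 (Cfap43). Of all 32851 windows, 12.5% held GTTGCC, 3.66% GTTGCTA and 3.65% TGTTTAC. Over the wider family of axonemal genes defined below, 16 of 42 genes with a window held GTTGCC (38.1%, against 14.6% of 13271 tested genes), 15 held GTTGCTA (35.7%, against 3.99%) and 3 held TGTTTAC (7.14%, against 3.35%). A match of letters is not a bound site.

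Ccdc40, which with Ccdc39 sets the spacing of the dynein arms (chr11:119228572-119265238), had 7.69, 19.4, 8.35, 1.27 and 9.58 CPM in B1/P/Rbf and 0.892, 0.221, 1.14, 0.605 and 1.16 CPM in P/Rbf tumors (log2 fold change 3.52, standard error 0.65, adjusted p = 0.0311). The groups did not overlap, and B1/P/Rbf tumor 4 was the lowest of its group. The dynein heavy chain Dnah2 (chr11:69420809-69549110) had 8.06, 23.2, 17.3, 7.28 and 53.6 against 2.44, 3.53, 1.92, 4.47 and 1.97 CPM (log2 fold change 2.93, standard error 0.54, adjusted p = 0.0311), again without overlap, while B1/P tumors had 0.711 to 2.83 CPM and glands 0.576 to 0.977 CPM. Both were named by rule, and their calls held in 4 and 3 of 10 fits.

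The other called cilium genes had low counts. Dnali1, a light intermediate chain of the inner dynein arm, had 3.15, 3.02, 1.05, 0.355 and 0.811 CPM against 0.115, 0.126, 0.101, 0.158 and 0.0681 CPM (log2 fold change 3.83, adjusted p = 0.0433). Cfap77, a protein of the doublet microtubules, had 2.13, 1.16, 1.38, 0.482 and 2.73 against 0.201, 0.126, 0.101, 0.395 and 0.306 CPM (log2 fold change 2.78, adjusted p = 0.0324), and Cfap53, which helps attach the dynein arms, had 6.41, 7.10, 2.26, 0.330 and 1.72 against 0.259, 0, 0.0506, 0.0263 and 0.170 CPM (log2 fold change 5.10, adjusted p = 0.0324). These 3 did not overlap between groups, but Dnali1 and Cfap53, like Pifo, passed the filter on low counts only with the B1/P/Rbf tumors, so that they were tested because of the levels there. In Cfap43, Nek5 and Pifo, B1/P/Rbf tumor 4, at 0.0761, 0.0761 and 0.152 CPM, did not exceed the highest P/Rbf tumor, and the other 4 B1/P/Rbf tumors did (log2 fold changes 3.88, 4.58 and 4.96, adjusted p = 0.0376, 0.0449 and 0.0433). Ttc21a, related to a subunit of intraflagellar transport, had 1.56, 2.46, 0.662, 0.964 and 5.88 against 0.173, 0.0631, 0.202, 0.132 and 0.204 CPM (log2 fold change 3.86, adjusted p = 0.0366). The calls of these 7 genes held in 1 to 3 of 10 fits.

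To see the whole group and not only its called members, all genes with symbols of the axonemal families were taken (Cfap, Dnah, Dnai, Dnaaf, Rsph, Tekt and Drc with a number, and Ccdc39, Ccdc40 and Dnali1), a rule written after values were seen. Of 70 such genes, 49 were tested, 6 were called higher and 0 lower, against 0.219% and 0.0625% over all genes, and 39 log2 fold changes were above 0 and 10 below. At an unadjusted p under 0.05 there were 24 higher and 1 lower, against 8.06% and 8.01% over all genes. Of the 49, 10 passed the filter on low counts only with the B1/P/Rbf tumors, 9 of them with log2 fold changes above 0 and 1, Cfap221, below, and this choice tilts these counts and the median upward. The other 39 held 4 of the calls, where 0.172% of all genes that passed without the B1/P/Rbf tumors were called higher. In these 39, 30 log2 fold changes were above 0 and 9 below, with 15 higher and 1 lower at an unadjusted p under 0.05 and a median of 0.93. DESeq2 called 11 of the 49 higher (7 of the 39) and 0 lower, where it called 3.06% and 2.23% of all genes, limma-voom 1 and 0, and edgeR 0 without any 1 of B1/P/Rbf tumors 2 and 5 and P/Rbf tumors 2 and 4, with a stricter filter on low levels, in the fit of only the 10 tumors and with the library-set term. The cilium family median log2 fold change was 1.54, with 1.13 to 1.632 over the alternative fits that kept family members, against −0.01 over all genes. All 5 B1/P/Rbf tumors lay above all P/Rbf tumors in 9 of the 49 (5 of the 39) and below in 0, against 1.71% and 1.31% of all genes, and 16 of the 49 had a mean under 1 CPM in both groups. One of the 49, Dnah2os, is an antisense RNA.

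Tumor by tumor, the median of the 49 genes relative to the mean of the P/Rbf tumors was 1.503, 1.39, 1.182, 0.23 and 1.75 log2 units in B1/P/Rbf tumors and 0.18, −0.45, 0.02, −0.06 and 0.33 in P/Rbf tumors. B1/P/Rbf tumor 4 thus lay below P/Rbf tumor 5, and it was the lowest of its group in 27 of the 49 genes. Over the 39 genes that passed the filter without the B1/P/Rbf tumors the medians were 1.13, 1.3, 1.13, 0.12 and 0.97 in B1/P/Rbf and 0.32, −0.41, 0, 0 and 0.35 in P/Rbf tumors, with B1/P/Rbf tumor 4 below P/Rbf tumors 1 and 5.

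**Figure D2:**
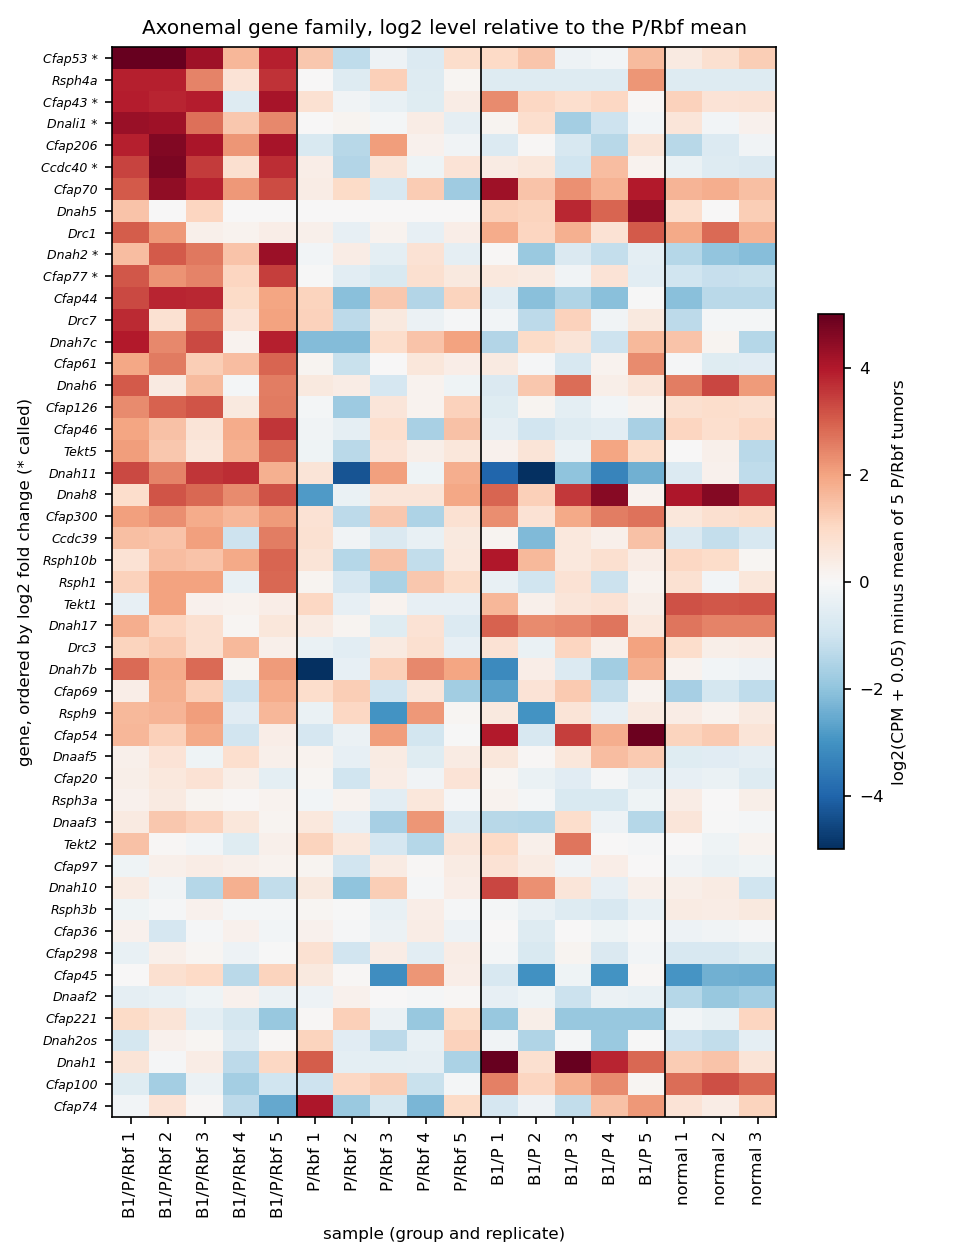
Levels of the 49 tested axonemal genes (rows, ordered by log2 fold change, called genes starred) in all 18 samples (columns), as log2(CPM + 0.05) minus the mean of the 5 P/Rbf tumors, with the color scale limited to −5 to 5. The upper rows are red in B1/P/Rbf tumors 1, 2, 3 and 5 and paler in tumor 4, whose median over the family is 0.23. Of the 49 genes, 10 passed the filter on low counts only through the B1/P/Rbf tumors.

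Foxj1 (chr11:116330704-116335399), chosen after its values were seen, had 93.5, 158, 91.7, 43.2 and 101 CPM in B1/P/Rbf and 6.79, 2.43, 22.3, 34.7 and 38.1 CPM in P/Rbf tumors. The groups did not overlap, and the gene was not called (log2 fold change 2.22, standard error 0.74, adjusted p = 0.152; 0.0364 to 0.294 over the alternatives). B1/P tumors had 0.126 to 4.73 CPM and glands 0.743 to 1.05 CPM. The RFX factors Rfx2 and Rfx3 had log2 fold changes of −0.01 and 0.23 (adjusted p = 0.998 and 0.771). Of other cilium genes chosen in this way, Spag6l (log2 fold change 5.12, adjusted p = 0.069), Ttc25 (log2 fold change 2.41, adjusted p = 0.057) and Deup1 (log2 fold change 2.66, adjusted p = 0.131), which helps make the many basal bodies of a ciliated cell, were not called. With the library-set term the log2 fold change was 1.04 for Spag6l and 1.02 for Deup1. Spag6l was called in 2 of 10 fits.

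C2cd3, a protein of the outer end of the centriole that is needed to build cilia (chr7:100372233-100470152), rose in all 5 tumors by a similar amount. Its levels were 137, 166, 146, 162 and 166 CPM against 89.8, 63.6, 49.7, 68.3 and 75.0 CPM (log2 fold change 1.16, standard error 0.23, adjusted p = 0.0376). It was the only one of the 54 genes that remained called with the library-set term (log2 fold change 2.10, adjusted p = 0.0166), and its call held in 3 of 10 fits.

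Gng12, a γ subunit of heterotrimeric G proteins (chr6:66896397-67021350 on the plus strand), rose in all 5 B1/P/Rbf tumors and was called in all 10 fits that left out a tumor. B1/P/Rbf tumors had 901, 1033, 305, 424 and 1109 CPM and P/Rbf tumors 81.6, 126, 153, 172 and 188 CPM, without overlap (log2 fold change 2.39, standard error 0.35, adjusted p = 0.0101). B1/P tumors, at 88.2 to 152 CPM, and glands, at 105 to 200.3 CPM, lay in the range of the P/Rbf tumors or close to it. The exact two-sided permutation p over the 10 tumors was 0.00794, the smallest that 5 against 5 allows.

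On the minus strand just upstream of Gng12 lies a run of Vmn1r genes, receptors by which sensory neurons of the vomeronasal organ detect pheromones. Of 327 annotated Vmn1r genes, 9 had enough counts to be tested, and 7 of these lie in 258 kb of chr6:66552180-66810609, which ends 85.8 kb before Gng12. Of the 9, 5 reached the low-count filter only through the B1/P/Rbf tumors, so that they were tested because of the levels there, and how many passed says nothing on its own. Vmn1r32, Vmn1r38, Vmn1r39 and the pseudogene Vmn1r-ps24 were called higher. Vmn1r34, Vmn1r35 and Vmn1r36 of the same run did not overlap between groups and just missed the threshold (adjusted p = 0.0501, 0.0501 and 0.0595).

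Vmn1r32 had 33.9, 24.2, 5.49, 5.43 and 34.3 CPM in B1/P/Rbf tumors and 0.0288, 0, 0.481, 0.0790 and 0.511 CPM in P/Rbf tumors (log2 fold change 6.53, standard error 1.06, adjusted p = 0.0159). Vmn1r38 had 10.0, 27.2, 3.67, 4.13 and 41.5 against 0.0575, 0.0315, 0.430, 0.290 and 0.885 CPM (log2 fold change 5.67, adjusted p = 0.0324), and Vmn1r39 3.15, 13.9, 1.16, 0.685 and 8.80 against 0.0288, 0, 0.101, 0.0526 and 0.0681 CPM (log2 fold change 6.67, adjusted p = 0.0448). As in Gng12, tumors 1, 2 and 5 were high and tumors 3 and 4 lower. The 5 B1/P tumors had at most 0.0296 CPM of each of these 3 genes. The genes of this family are near-identical copies in part, between which RSEM divides read pairs, so the level of a single member is uncertain. Calls held in 9, 4, 2 and 2 of 10 fits for Vmn1r32, Vmn1r38, Vmn1r39 and Vmn1r-ps24.

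Next to the start of Gng12 and pointing away from it on the minus strand, the transcript 4930597O21Rik had 3.04, 4.88, 0.303, 0.786 and 3.99 against 0.115, 0.126, 0.354, 0.158 and 0.204 CPM and was not called (log2 fold change 3.73, adjusted p = 0.069). The protein-coding neighbors on the far sides were not called either. Mad2l1, a spindle checkpoint gene, had a log2 fold change of −0.15, Gadd45a, a stress-induced growth arrest gene, 0.52, and Serbp1, which encodes an mRNA-binding protein, 0.14 (adjusted p = 0.845, 0.616 and 0.79). Of all 42 higher genes 8 were on chromosome 6, or 0.746% of the 1073 tested there, against 0.219% over all genes. These comprise Gng12, the Vmn1r genes, Reg3b, Dennd2a and Grm8, of which 4 (Vmn1r39, Vmn1r-ps24, Reg3b and Grm8) passed the filter only through the B1/P/Rbf tumors, and the Vmn1r genes are neighbors and similar copies. Among genes that passed without these tumors 4 of 1026 on the chromosome were called higher (0.39%), against 0.172% over all such genes.

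**Figure D3:**
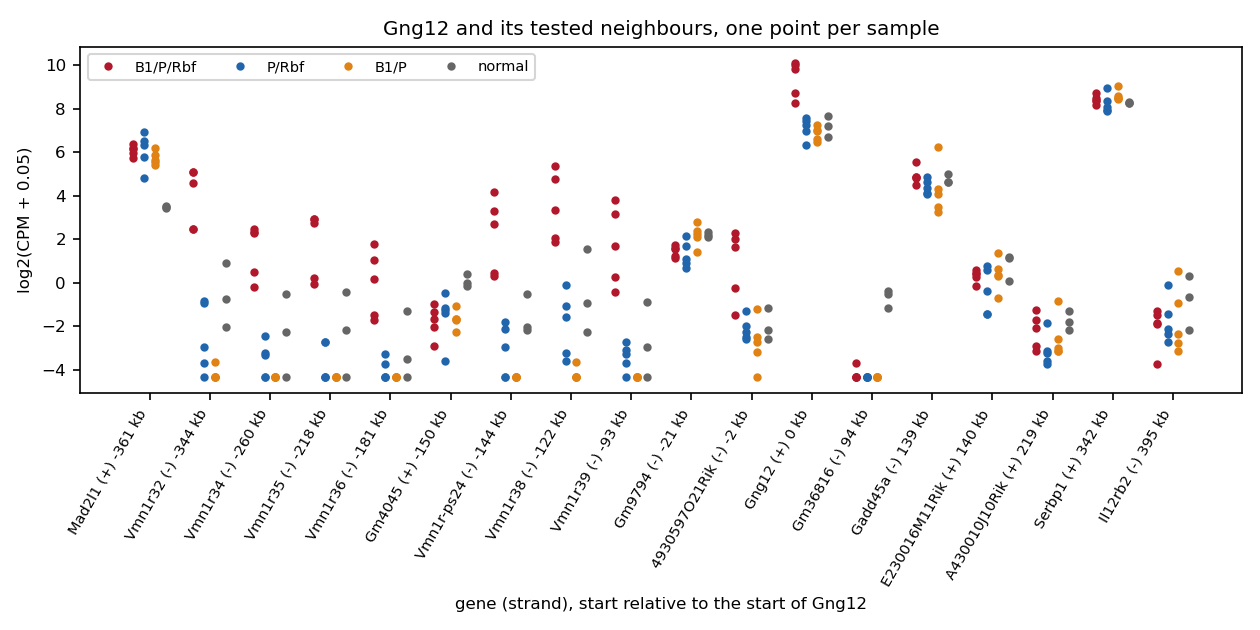
Levels, as log2(CPM + 0.05), of Gng12 and its tested neighbors in order along chromosome 6, labelled with strand and distance of their start from that of Gng12 in kb, with 1 point per sample. The Vmn1r genes and Gng12 are higher in the B1/P/Rbf tumors, and the neighbors from Gadd45a to Il12rb2 and Mad2l1 are not apart.

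The 3 largest log2 fold changes were those of Gcg, Reg3b and Isl1, with wide spread between tumors, and Gcg and Reg3b passed the filter on low counts only through the B1/P/Rbf tumors. Reg3b, an antibacterial lectin of gut and pancreas (chr6:78370657-78373466), had 434, 182, 64.0, 1.57 and 18.5 CPM in B1/P/Rbf tumors and 0.144, 0.0946, 0.127, 0 and 0.374 CPM in P/Rbf tumors (log2 fold change 9.90, standard error 1.37, adjusted p = 0.0101). All 5 B1/P/Rbf tumors were above all others, and B1/P tumors and glands had at most 0.0296 CPM. Its neighbor Reg3g, chosen after its values were seen, overlapped between groups and was not called, with 208, 308, 235, 3.91 and 103 against 4.31, 1.45, 0.177, 0.158 and 88.6 CPM (log2 fold change 3.18, adjusted p = 0.273). Over the alternatives the log2 fold change of Reg3g ran from 0.063, with the library-set term, to 6.82. Reg3g was called in 1 of 10 fits.

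Gcg, which encodes the precursor of glucagon, had 227, 842, 357, 0.0507 and 25.0 CPM against 0, 0, 0, 0.0526 and 0.204 CPM (log2 fold change 12.48, standard error 1.90, adjusted p = 0.012). In 4 tumors it was far above P/Rbf, and B1/P/Rbf tumor 4 was at the level of P/Rbf. Isl1, a homeodomain factor of endocrine and neural cells, had 141, 31.9, 2.40, 0.964 and 0.162 against 0.201, 0.0315, 0.0759, 0.105 and 0.0681 CPM (log2 fold change 8.45, adjusted p = 0.0311), with tumor 5 inside the range of P/Rbf, and glands had 2.37 to 3.17 CPM. Retnla, a resistin-like protein made by alternatively activated macrophages and fat tissue, had 3.52, 1.56, 0.221, 56.2 and 9.84 against 0.115, 0.221, 0.0253, 0.0526 and 0.0681 CPM (log2 fold change 7.18, adjusted p = 0.0247), and its highest value was in tumor 4, the tumor lowest in Reg3b and Gcg. With 1 tumor left out the smallest log2 fold changes were 8.82 for Reg3b and 6.46 for Isl1 (both without B1/P/Rbf tumor 1), 11.54 for Gcg (without tumor 2) and 5.27 for Retnla (without tumor 4). Calls of Reg3b, Gcg, Isl1 and Retnla held in 10, 8, 3 and 6 of 10 fits.

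Among other called genes, chosen after their values were seen where no rule named them, was Nrxn2, a presynaptic adhesion protein (chr19:6418731-6544169), with 5.56, 25.8, 3.09, 3.98 and 16.2 against 0.0575, 0.126, 0.456, 0.632 and 0.0681 CPM (log2 fold change 5.32, standard error 0.81, adjusted p = 0.012), without overlap. The tyrosine phosphatase Ptpn5 (chr7:47077795-47133684) had 34.9, 33.1, 7.97, 1.24 and 93.3 against 0.0863, 0.442, 0.607, 0.526 and 1.06 CPM (log2 fold change 5.97, standard error 1.19, adjusted p = 0.0433), again without overlap, and B1/P/Rbf tumor 4 lay nearest to P/Rbf. The P/Rbf tumors together had no more than 2 counts each of the dopamine receptor Drd2, the glutamate receptor Grm8 and the heparan sulfate sulfotransferase Hs3st5. Drd2 and Grm8 passed the filter on low counts only with the B1/P/Rbf tumors, so that they were tested because of the levels there. The pooled ratios of B1/P/Rbf to P/Rbf were 50.4 (95% exact interval 13.6 to 422, counting error only) for Drd2, 66.9 (95% exact interval 11.6 to 2680.0, counting error only) for Grm8 and 149 (95% exact interval 26.4 to 5930.0, counting error only) for Hs3st5. B1/P/Rbf tumor 2 gave 63 of the 104 counts of Drd2 in its group, and without it the pooled ratio was 25.1. In glands Ptpn5 had 3.87, 77.0 and 4.57 CPM, all above every P/Rbf tumor, and Hs3st5 had 1.90 to 4.71 CPM, Grm8 0.229 to 0.508 CPM and Drd2 0. Calls held in 9 of 10 fits for Nrxn2, 2 for Ptpn5, 3 for Drd2, 1 for Grm8 and 5 for Hs3st5.

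Among membrane and trafficking genes, Dennd2a, an exchange factor for Rab GTPases (chr6:39462378-39557867), had 70.3, 142, 38.2, 16.5 and 122 CPM against 1.73, 2.33, 3.57, 3.03 and 6.54 CPM (log2 fold change 4.5, standard error 0.58, adjusted p = 0.00717). The scavenger receptor family member Scara3 (chr14:65919394-65953935) had 162, 58.2, 143, 7.00 and 29.99 against 0.863, 2.55, 3.14, 3.61 and 1.26 CPM (log2 fold change 5.13, standard error 0.75, adjusted p = 0.0101). Neither overlapped, tumor 4 was the lowest B1/P/Rbf tumor in both, and both calls held in 10 of 10 fits. Every B1/P tumor also exceeded every P/Rbf tumor in both genes (9.66 to 37.8 and 10.3 to 41.0 CPM), as did every gland (14.6 to 21.6 and 8.25 to 19.7 CPM).

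Carmil2, a regulator of actin capping (chr8:105686274-105698187), had 21.9, 71.8, 54.6, 3.47 and 45.7 against 1.81, 1.86, 0.810, 2.79 and 3.20 CPM (log2 fold change 4.24, adjusted p = 0.0224). Heph, a ferroxidase that helps iron leave cells (chrX:96455359-96574485), had 25.4, 30.3, 27.2, 5.63 and 70.8 against 3.22, 1.96, 1.59, 3.40 and 0.102 CPM (log2 fold change 3.95, adjusted p = 0.0268). In both the groups were apart, with tumor 4 the lowest B1/P/Rbf tumor, and glands had 23.8 to 36.3 CPM of Carmil2 and 32.4 to 49.2 CPM of Heph. Slc12a4, a potassium-chloride cotransporter, had 57.3, 81.8, 30.8, 26.8 and 59.0 against 12.9, 14.4, 11.8, 10.3 and 13.3 CPM (log2 fold change 2.03, adjusted p = 0.0192), and Ednra, a receptor for endothelin, 30.9, 59.3, 109, 22.9 and 20.8 against 4.26, 17.0, 6.61, 6.74 and 8.58 CPM (log2 fold change 2.49, adjusted p = 0.0418), both without overlap. The fatty acid transporter Cd36 (log2 fold change 2.71, adjusted p = 0.0418) overlapped through B1/P/Rbf tumor 3, at 3.14 CPM, within the 2.35 to 5.65 CPM of P/Rbf tumors, and was at 1343 to 1856 CPM in glands. Calls held in 7, 5, 7, 2 and 2 of 10 fits in the order given.

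Among genes of gene regulation and translation, Tet1, which oxidizes methylated cytosine in DNA (chr10:62804570-62908996), had 2.10, 17.3, 10.6, 3.65 and 22.2 CPM in B1/P/Rbf and 0.0288, 0.946, 0.202, 0.579 and 1.29 CPM in P/Rbf tumors (log2 fold change 4.196, standard error 0.81, adjusted p = 0.0376). The groups did not overlap, and B1/P tumors (5.27 to 36.4 CPM) and glands (5.42 to 7.54 CPM) were also above P/Rbf. Gspt2, a translation termination factor, had 7.26, 3.89, 0.0551, 3.12 and 13.1 against 0.0575, 0.126, 0.354, 0.132 and 0.0340 CPM (log2 fold change 5.23, adjusted p = 0.0247), with B1/P/Rbf tumor 3 at the P/Rbf level. Calls held in 5 and 6 of 10 fits.

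The transcript Gm42427, of undetermined coding status (chr5:44137980-44143271), had 149, 1346, 194, 424 and 217 against 26.4, 16.0, 77.2, 72.7 and 44.0 CPM (log2 fold change 3.30, adjusted p = 0.0433), with tumor 2 far above the rest. AW551984 had 235, 81.7, 47.3, 0.507 and 109 against 0.0288, 0.725, 0.658, 1.34 and 1.74 CPM (log2 fold change 6.72, adjusted p = 0.0192), and tumor 4 alone was inside the P/Rbf range. The remaining higher genes, named after their values were seen, were AC158975.2, Gm33195, Gm5148, Gm5182, E530011L22Rik, Col4a3, a basement membrane collagen chain, and Igdcc3, of the immunoglobulin superfamily, with log2 fold changes from 2.36 for Gm5148 to 5.80 for Col4a3 and adjusted p from 0.0146 to 0.0491. Igdcc3 passed the filter on low counts only through the B1/P/Rbf tumors, so that it was tested because of the levels there. E530011L22Rik is annotated as antisense to another gene. Calls of these 9 genes held in 1 to 9 of 10 fits.

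Among the 12 lower genes was Egfr, the receptor tyrosine kinase for EGF and amphiregulin (chr11:16752203-16918158). It had 10.6, 2.81, 14.1, 6.04 and 5.71 CPM in B1/P/Rbf tumors and 31.8, 107, 17.6, 91.0 and 32.6 CPM in P/Rbf tumors (log2 fold change −2.84, standard error 0.52, adjusted p = 0.0311). The groups did not overlap, and their closest values were those of tumor 3 in each group. B1/P tumors, which carry the floxed Brca1 alleles too, had 37.7 to 96.1 CPM, and glands 20.9 to 33.1 CPM. The call held in 5 of 10 fits, with an adjusted p of 0.0554 without B1/P/Rbf tumor 1, 0.0845 without B1/P/Rbf tumor 2, 0.076 without B1/P/Rbf tumor 5, 0.0654 without P/Rbf tumor 2 and 0.0807 without P/Rbf tumor 4.

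Stard4, which carries cholesterol between membranes inside cells, had 11.1, 3.64, 10.9, 8.14 and 8.31 CPM against 80.1, 81.6, 13.0, 68.9 and 56.2 CPM (log2 fold change −2.83, standard error 0.43, adjusted p = 0.012). P/Rbf tumor 3 was far below the other P/Rbf tumors and only just above the highest B1/P/Rbf tumor. The call held in 10 of 10 fits. Chchd10, a small protein of the mitochondrial intermembrane space (chr10:75933130-75937747), had 5.76, 6.50, 8.44, 10.6 and 4.54 against 20.2, 42.8, 22.98, 95.9 and 13.0 CPM (log2 fold change −2.44, standard error 0.47, adjusted p = 0.0366), and glands had 155 to 176 CPM. B1/P tumors, at 4.44 to 11.4 CPM, were below every P/Rbf tumor as well. The call of Chchd10 held in 4 of 10 fits.

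On chromosome 14, 4 of the 12 lower genes were found, with 683 genes tested there, where 0.0625% of all genes were called lower. Reep4, which clears the endoplasmic reticulum from chromosomes in mitosis (chr14:70545251-70548933), had 35.9, 39.0, 57.5, 52.3 and 46.3 against 91.4, 145, 118, 158 and 82.0 CPM (log2 fold change −1.36, adjusted p = 0.0311). Nudt18, a hydrolase of oxidized nucleotides (chr14:70577637-70582688), lies 28.7 kb from it and had 11.1, 6.64, 16.1, 17.5 and 12.7 against 37.3, 31.2, 28.4, 28.4 and 27.5 CPM (log2 fold change −1.26, adjusted p = 0.0406). In both the groups were apart, as they were in the next pair. Ppp2r2a, a regulatory subunit of protein phosphatase 2A (chr14:67014056-67072444), had 47.0, 37.9, 69.5, 49.3 and 63.8 against 96.0, 121.2, 120.3, 97.2 and 114 CPM (log2 fold change −1.04, adjusted p = 0.0179), and Exoc5, a subunit of the exocyst (chr14:49004090-49066653), had 33.1, 53.2, 55.3, 41.8 and 52.6 against 73.9, 96.3, 85.4, 91.4 and 104 CPM (log2 fold change −0.93, adjusted p = 0.0433). In all 4 every B1/P tumor was below every P/Rbf tumor too. Calls held in 5, 2, 9 and 2 of 10 fits. The chromosome as a whole is described further on.

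Bahd1, a protein of silenced chromatin (chr2:118900377-118924528), had 26.0, 13.2, 23.7, 16.7 and 15.8 CPM against 77.3, 51.2, 37.9, 36.8 and 40.4 CPM (log2 fold change −1.35, adjusted p = 0.03). Rap2c, a small GTPase of the Ras family (chrX:51003912-51018018), had 29.4, 37.1, 49.6, 51.6 and 32.3 against 68.4, 75.6, 81.9, 124 and 122 CPM (log2 fold change −1.24, adjusted p = 0.0324), and Def8 (chr8:123423527-123463270) had 29.9, 35.02, 38.02, 35.3 and 26.5 against 72.4, 64.9, 43.0, 167 and 69.1 CPM (log2 fold change −1.34, adjusted p = 0.0458). None of the 3 overlapped, and the P/Rbf values of Def8 ran widely, up to the 167 CPM of tumor 4. B1/P tumors had 69.9 to 140.1 CPM of Rap2c and 55.4 to 77.9 CPM of Def8. Calls held in 6, 4 and 2 of 10 fits. The noncoding Gm4544, the only lower gene that overlapped, had at most 0.0507 CPM in B1/P/Rbf tumors and 3.62, 1.55, 0.0506, 3.16 and 0.102 CPM in P/Rbf tumors (log2 fold change −5.75, adjusted p = 0.0311), and held in 3 of 10 fits.

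C130046K22Rik is a noncoding transcript on chromosome 11 (chr11:103697724-103722832, plus strand) that lies 2.15 Mb from Brca1. The 10 tumors labelled with deleted Brca1 held 1 count of it in all, in B1/P/Rbf tumor 2, and B1/P/Rbf tumor 3, with its partial loss, held none. P/Rbf tumors had 0.920, 0.757, 0.785, 1.61 and 0.647 CPM and glands 0.860, 0.458 and 0.508 CPM. Over the groups compared the ratio of P/Rbf to B1/P/Rbf was 172 (95% exact interval 30.5 to 6840.0, counting error only), the gene was called (adjusted p = 0.00717), and the call held in 10 of 10 fits. Whether the transcript follows Brca1 or the DNA bred in beside the floxed allele cannot be told apart.

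Around the targeted loci few other genes were called. Within 10 Mb of Brca1 1 of 347 tested genes was called (0.288%, near the 0.281% of all genes), and within 20 Mb 2 of 686 (0.292%), the other being Ccdc40. Within 10 Mb of Trp53, whose floxed allele both groups carry, 1 of 360 was called, Dnah2. Across the genome, the 10 tumors labelled with deleted Brca1 lay above the 8 other samples in 14 genes (0.073%) and below them in 31 (0.162%). These are 45 of 19186 tested genes, and 3 of them are among the 347 tested within 10 Mb of Brca1. Of the 360 tested within 10 Mb of Trp53, 0 are among the 45.

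DNA repair and replication lists were then counted, since the loss of BRCA1 acts on these processes. In each list 0 genes were called by edgeR and by limma-voom, and calls by DESeq2, here and in the lists below, stand beside the 3.06% of all genes that it called higher and 2.23% lower. Counts at an unadjusted p under 0.05, here and below, stand beside 8.06% of all genes higher and 8.01% lower. Of 47 homologous recombination and Fanconi anemia genes, 22 had log2 fold changes above 0 and 25 below (median −0.02, but 0.18 with the library-set term), 0 were higher and 4 lower at an unadjusted p under 0.05, and DESeq2 called 1, Brca1. The smallest p above 0 belonged to Atm, the kinase that signals broken DNA (log2 fold change 0.44, adjusted p = 0.469). Of 23 end joining and PARP genes 15 were below 0 (median −0.09, but 0.11 with the stricter filter), 0 and 2 passed the unadjusted threshold, and DESeq2 called Lig4, the ligase of end joining, lower (log2 fold change −0.68, adjusted p = 0.152). Xrcc1, the scaffold of single-strand break repair, had the smallest p among those above 0 (log2 fold change 0.34, adjusted p = 0.369). Of 25 nucleotide excision repair genes 15 were below 0 (median −0.05, but 0.34 with the stricter filter), 1 was higher (Xpc, log2 fold change 0.53, adjusted p = 0.254) and 1 lower (Rbx1, log2 fold change −0.52, adjusted p = 0.307) without adjustment, and DESeq2 called 0.

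The replication list had 37 of 64 genes above 0 (median 0.05, but 0.42 with the library-set term and 0.21 with the stricter filter), 3 higher and 3 lower at an unadjusted p under 0.05. All B1/P/Rbf tumors lay above all P/Rbf tumors in 5 of the 64 and below in 1, against 1.71% and 1.31% of all genes. The 6 subunits of the MCM2-7 helicase, which unwinds DNA at replication forks, had log2 fold changes of 0.51, 0.42, 0.27, 0.33, 0.45 and 0.45 for Mcm2 to Mcm7, with adjusted p from 0.188 to 0.561.

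Mcm6 had 393, 431, 523, 432 and 451 CPM in B1/P/Rbf and 249, 324, 297, 382 and 383 CPM in P/Rbf tumors. Mcm2 had 258, 254, 263, 251.7 and 290.4 against 98.5, 205, 206, 234 and 181 CPM, and Mcm7 263, 326, 281, 333 and 312 against 212, 218, 233, 210.4 and 235 CPM. The groups were apart in these 3 and in Mcm3, and overlapped in Mcm4 and Mcm5. DESeq2 called 0 of the Mcm genes, and in the exact two-sided permutation test the 4 genes without overlap had p = 0.00794, the smallest the design allows. Dbf4, which activates the kinase that fires origins, was lower in all 5 B1/P/Rbf tumors, with 40.8, 49.3, 42.0, 57.9 and 39.6 against 62.2, 73.8, 79.5, 66.3 and 68.8 CPM (log2 fold change −0.61, adjusted p = 0.12), and was the gene of this list that DESeq2 called.

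No mitotic gene was called. Of 41 mitotic genes 39 had log2 fold changes below 0 (95.1%, against 50.8% of all genes), with a median of −0.45. At an unadjusted p under 0.05 there were 0 higher and 10 lower, against 8.06% and 8.01% of all genes. In edgeR, DESeq2 and limma-voom 0 were called. In single tumors the median of the list, relative to P/Rbf, was −0.56, −0.12, −0.47, −0.12 and −0.50 in B1/P/Rbf and −0.64, 0.28, −0.07, 0.71 and −0.25 in P/Rbf tumors, so that the groups overlapped and the P/Rbf tumors spread more. With the library-set term the median was 0.10. The smallest p below 0 was that of Cenpe, a kinetochore motor (log2 fold change −0.69, adjusted p = 0.144), and the smallest above 0 that of Plk1, a mitotic kinase (log2 fold change 0.06, adjusted p = 0.949). Of 34 RB, E2F and G1 genes 21 were below 0 (median −0.19, but 0.17 with the library-set term, 0.078 with the stricter filter and −0.016 in limma-voom), 0 were higher and 6 lower without adjustment, and DESeq2 called E2f5, a repressive E2F, lower (log2 fold change −0.73, adjusted p = 0.126). Wee1, the inhibitory kinase of CDK1, had the smallest p above 0 (log2 fold change 0.35, adjusted p = 0.461). Of 22 p53 target genes 11 lay on each side (median 0.03), 0 were higher and 2 lower without adjustment, DESeq2 called 0, and Ccng1 was the lowest in p (log2 fold change −0.64, adjusted p = 0.145).

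**Figure D4:**
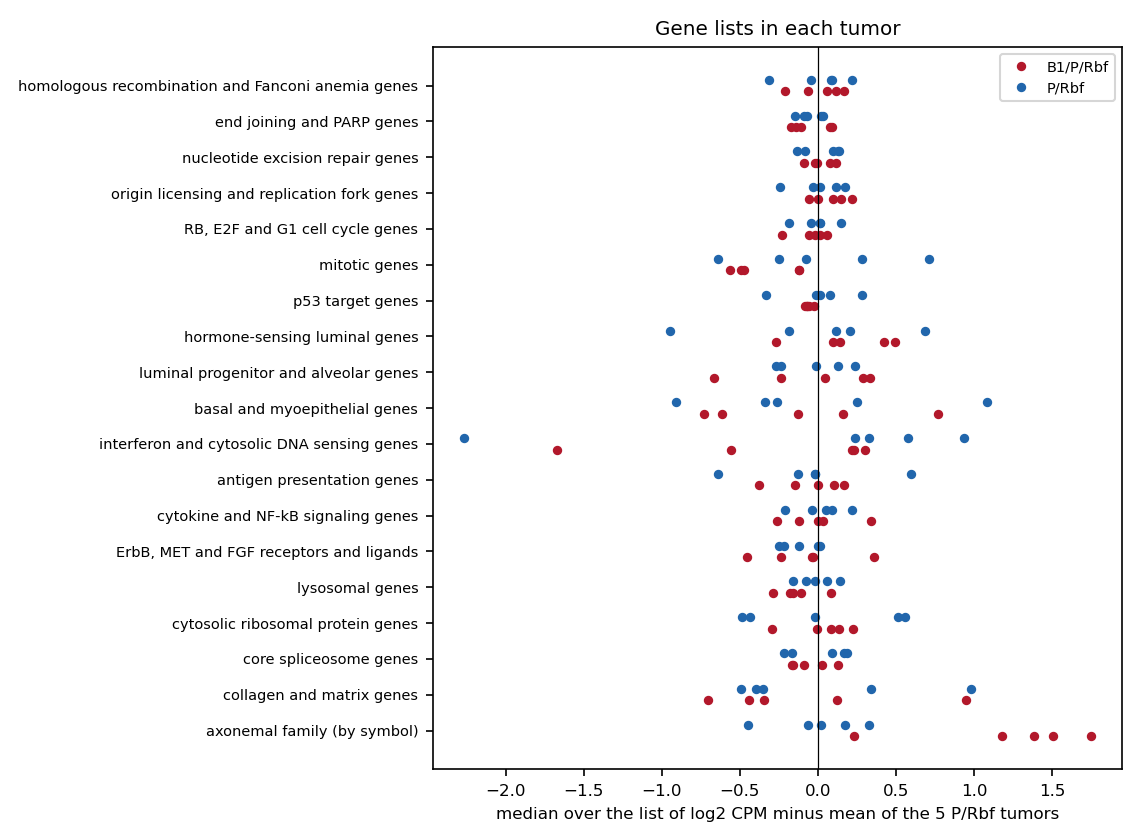
Median over each gene list of a gene's log2 CPM minus its mean in the 5 P/Rbf tumors, with 1 point per tumor. The points of both groups overlap in every one of the 18 lists and in the axonemal family, where 4 of the 5 B1/P/Rbf tumors lie apart at 1.182 to 1.75. Over the 39 axonemal genes that passed the filter without the B1/P/Rbf tumors these 4 medians were 0.97 to 1.3.

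Receptor and lineage lists were counted next. In the list of ErbB, MET and FGF receptors and ligands 1 of 31 genes was called, Egfr, lower, against 0.0625% of all genes. Of the 31, 18 were below 0 (median −0.09, but −0.60 with the library-set term). At an unadjusted p under 0.05 there were 2 higher and 6 lower, against 8.06% and 8.01% of all genes. DESeq2 called 4 of the list lower, Egfr, Igf1r, Nrg1 and Nrg2, where it called 2.23% of all genes lower. Met, the receptor of hepatocyte growth factor, had 24.5, 4.37, 32.4, 51.6 and 4.77 CPM against 8116, 125, 65.1, 64.5 and 55.8 CPM (log2 fold change −6.16, adjusted p = 0.0724), without overlap. P/Rbf tumor 1 lay far above the other 4, and without it the Met log2 fold change was −1.74. Igf1r, the receptor of insulin-like growth factors, had 14.0, 3.89, 14.1, 4.67 and 5.78 against 43.1, 1049, 7.59, 497 and 7.05 CPM (log2 fold change −5.24, adjusted p = 0.061), with P/Rbf tumors 2 and 4 far above the others. Over the alternatives the log2 fold change of Igf1r ran from −5.56 to −3.16, and 2 of 10 fits called it. Met and Igf1r were chosen after their values were seen. Erbb2 (log2 fold change 0.33, adjusted p = 0.477) and Erbb3 (log2 fold change −0.05, adjusted p = 0.973), the partners of EGFR in dimers, and the EGFR ligand Areg (log2 fold change −0.25, adjusted p = 0.939) were not called. The growth factor Igf2 had 429.6, 3017, 2080.3, 344 and 1271 against 447, 7.98, 102, 55.5 and 110.1 CPM (log2 fold change 3.30, adjusted p = 0.251), with B1/P/Rbf tumors 1 and 4 inside the range of P/Rbf.

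Of 24 hormone-sensing luminal genes 0 were called by edgeR or limma-voom (13 below 0, median −0.03, but 0.85 with the library-set term), 4 were higher and 5 lower at an unadjusted p under 0.05, and the genes that DESeq2 called included Esr1 and Greb1, higher, and Tnfsf11, lower. Esr1, the estrogen receptor, had 235, 247, 108, 137 and 177 CPM in B1/P/Rbf and 82.2, 12.0, 75.6, 32.4 and 63.4 CPM in P/Rbf tumors, without overlap (log2 fold change 1.77, standard error 0.49, adjusted p = 0.111 in edgeR). The progesterone receptor Pgr overlapped (log2 fold change 1.2, adjusted p = 0.662). With the library-set term the log2 fold change was 5.81 for Pgr and 3.15 for Esr1 (adjusted p = 0.167 and 0.105). Pgr in P/Rbf tumors ran from 4.16 to 233 CPM, and in B1/P/Rbf tumors from 168 to 414 CPM. Tnfsf11 (RANKL), the paracrine signal downstream of progesterone, had 0.230, 19.9, 0.405, 39.4 and 0.136 CPM in P/Rbf tumors and at most 1.45 CPM in B1/P/Rbf tumors (log2 fold change −4.87, adjusted p = 0.119), and P/Rbf tumors 2 and 4 lay far above the other 8 tumors.

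Of 19 luminal progenitor genes 10 were below 0 (median −0.03, with −0.56 with the library-set term, −0.46 with the stricter filter, −0.42 in limma-voom, −0.52 without B1/P/Rbf tumor 5 and 0.41 without P/Rbf tumor 2), and 0 were called, with 1 higher and 2 lower without adjustment and 2 called by DESeq2, Kit (log2 fold change 2.43, adjusted p = 0.152) and the epithelial factor Ehf (log2 fold change −2.08, adjusted p = 0.114). Of 20 basal and myoepithelial genes 14 were below 0 (median −0.18), with 0 higher and 2 lower at an unadjusted p under 0.05. Egfr, which this list shares with the receptor list, was the 1 called lower, against 0.0625% of all genes. The basal keratin Krt15 had 2218, 47.5, 29.7, 546 and 65.2 against 11.2, 3.06, 382, 14.6 and 16.4 CPM (log2 fold change 2.77, adjusted p = 0.383), and overlapped.

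Of immune genes, 36 of 43 in the interferon and cytosolic DNA sensing list were below 0 (median −0.53, but −2.24 with the library-set term), with 1 higher and 3 lower without adjustment and 0 called by edgeR, DESeq2 or limma-voom. The spread within groups was larger than this difference, since the median of the list was −1.67 in B1/P/Rbf tumor 4 and −2.27 in P/Rbf tumor 3, and between −0.56 and 0.94 in the other 8 tumors. Isg15, an interferon-induced modifier, had 109, 30.4, 114, 30.6 and 53.7 against 297, 308, 19.4, 143 and 234 CPM (log2 fold change −1.57, adjusted p = 0.271). Gbp3, an interferon-induced GTPase (log2 fold change −1.85, adjusted p = 0.265), and Tmem173, which encodes STING (log2 fold change 1.80, adjusted p = 0.198), had the smallest p in each direction, and Cgas, the sensor that acts on STING, had a log2 fold change of 0.20 (adjusted p = 0.777). The antigen presentation list (18 genes, 11 below 0, median −0.10, but −1.15 with the library-set term) and the cytokine and NF-kB list (52 genes, 26 below 0, median 0.01, but −0.997 with the library-set term) had 0 calls in the 3 tools, with 0 and 2 higher and 1 and 3 lower without adjustment. Their smallest p belonged to H2-T23 (log2 fold change −1.23, adjusted p = 0.263) and H2-Ab1 (log2 fold change 0.67, adjusted p = 0.514), which present antigens, and to the chemokine Ccl2 (log2 fold change 1.14, adjusted p = 0.191) and the receptor Tnfrsf12a (log2 fold change −1.003, adjusted p = 0.194).

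The remaining lists had 0 genes called by edgeR and limma-voom. Lysosomal genes had 38 of 58 below 0 (median −0.16, but −0.64 with the library-set term and −0.029 in limma-voom), 3 higher and 9 lower without adjustment, and DESeq2 called the protease Ctsf higher (log2 fold change 1.93, adjusted p = 0.0911) and the sulfatase Arsa lower (log2 fold change −1.32, adjusted p = 0.126). Ribosomal protein genes had 47 of 81 below 0 (median −0.03), 0 higher and 1 lower without adjustment, with Rpl32 (log2 fold change 0.40, adjusted p = 0.504) and Rps27l (log2 fold change −0.51, adjusted p = 0.229) the smallest in p. Core spliceosome genes had 33 of 56 below 0 (median −0.09, but 0.20 with the library-set term and 0.14 with the stricter filter), 1 higher and 2 lower without adjustment, with Prpf19 (log2 fold change 0.44, adjusted p = 0.279) and Lsm6 (log2 fold change −0.67, adjusted p = 0.187). Collagen and matrix genes had 19 of 35 below 0 (median −0.13), 2 higher and 3 lower without adjustment, with Col15a1 (log2 fold change 0.74, adjusted p = 0.173) and the protease inhibitor Timp2 (log2 fold change −0.94, adjusted p = 0.154). DESeq2 called 0 in these last 3 lists.

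Chromosome-wide shifts were described from the median of genes whose mean reached 5 CPM, relative to the mean of the 10 tumors. On chromosome 14 the median was −0.41, 0.04, 0.08, −0.57 and −0.0036 log2 units in B1/P/Rbf tumors and 0.09, 0.23, 0.15, 0.16 and 0.30 in P/Rbf tumors. All P/Rbf tumors thus lay above all B1/P/Rbf tumors, with B1/P/Rbf tumors 1 and 4 lowest (difference −0.36, exact two-sided permutation p = 0.00794, 0.159 after Benjamini-Hochberg adjustment over 20 chromosomes). Called genes there made up 0.732% of those tested, 1 higher and 4 lower, against 0.281% of all genes. Copy number was not measured, and its part in the lower levels of Reep4, Nudt18, Ppp2r2a and Exoc5 was not tested.

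On chromosome 11, which carries Brca1, Trp53 and Egfr, the difference was −0.09 (exact permutation p = 0.0317, adjusted 0.317). Single P/Rbf tumors stood apart on other chromosomes, such as tumor 1 on chromosome 6 (−0.59), tumor 2 on chromosome 8 (−0.56) and tumor 3 on chromosome 7 (−0.60). P/Rbf tumor 1, low over chromosome 6, also had the lowest Gng12 level of its group, and the other 4 P/Rbf tumors lay below every B1/P/Rbf tumor in Gng12 as well. Copy number was not measured here either, and its part in the Gng12 levels was not tested.

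**Figure D5:**
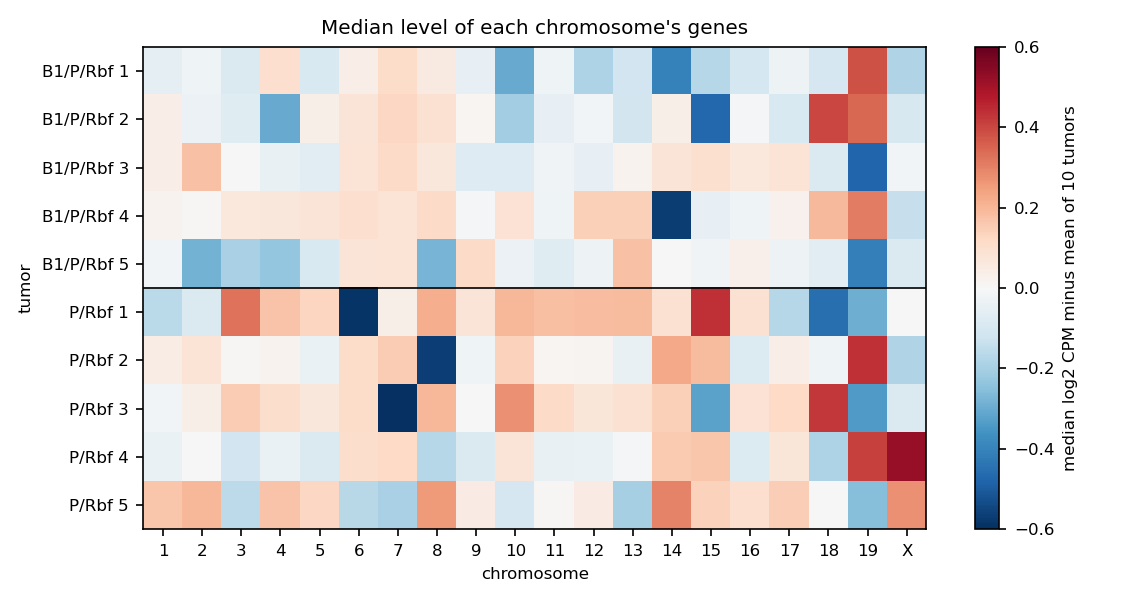
Median over the genes of each chromosome of log2 CPM minus the mean of the 10 tumors, with tumors as rows and chromosomes as columns, and the color scale limited to −0.6 to 0.6. Chromosome 14 is blue in B1/P/Rbf tumors 1 and 4 and red in all P/Rbf tumors, and single P/Rbf tumors stand apart on chromosomes 6, 7 and 8.

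Other cell types were followed by the summed CPM of their marker lists. Of the 10 lists, 0 genes were called by edgeR or limma-voom, and DESeq2 called 2, the adipocyte genes Fabp4 and Lep. The 5 adipocyte markers were all higher at an unadjusted p under 0.05, and their sum ran from 3.53 to 172 CPM in B1/P/Rbf tumors against 2.76 to 12.5 CPM in P/Rbf tumors, with glands at 9182 CPM or more. Cd36, Retnla and Heph, which are also made outside the epithelium, are to be read beside these values, and the part of fat tissue in their rise was not tested. Skeletal muscle markers summed to 4.51 to 22.5 CPM against 0.92 to 3.88 CPM, without overlap, but 2 of the 5 had log2 fold changes above 0 (median −0.23), with 1 higher without adjustment.

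Macrophage markers (163 to 584 against 197 to 443 CPM), fibroblast markers (118 to 548 against 94.1 to 654 CPM), endothelial markers (93.5 to 293 against 68.8 to 233 CPM) and neutrophil markers (12.6 to 114 against 6.33 to 52.9 CPM) overlapped between groups. So did those of T cells (2.08 to 24.6 against 2.96 to 29.4 CPM), of B and plasma cells (0.386 to 14.3 against 0.477 to 9.63 CPM) and of erythroid cells (37.5 to 109 against 17.5 to 115 CPM). Mitochondrial mRNA made up 0.898% to 1.66% of counts in B1/P/Rbf and 1.14% to 3.67% in P/Rbf tumors.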

How the data were processed

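RNA from 18 mice was sequenced, 1 library each. According to the methods, stranded paired-end libraries were pooled, and reads were trimmed with cutadapt and counted with RSEM, for which the submitters' processing notes give versions 1.18 and 1.3.0. The authors deposited RSEM expected counts for 55450 genes, not normalized, of which 5.61% of values are not whole. The methods name a human reference and the processing notes human and mouse builds, and every identifier matches the mouse annotation GENCODE M21 (GRCm38), used for positions. Whether counting used the strand is not given in the sources used here.

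Counts were rounded and fitted over all 18 samples in edgeR 4.0.16 (R 4.3.3) with TMM factors, filterByExpr (minimum count 10) and the quasi-likelihood test. Calls were made at a Benjamini-Hochberg adjusted p up to 0.05. Alternatives were DESeq2 1.42.0, limma 3.58.1 (voom, quantile normalization), no TMM factors, no filter, a stricter filter (log2 CPM no lower than 6 in 6 or more samples), only the 10 tumors, a term for 2 library sets (named by no label, inferred in earlier work on these data), an adjusted p of 0.10 and each tumor left out. For single values the exact permutation test, two-sided, was used. The fits were tested on simulated data.

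Samples, gene lists, marker lists and tests were chosen with earlier results of these data known, and the motif and axonemal lists after values were seen. Genes were named by rule: the engineered genes, Krt18 and Erbb2; Mcm2 to Mcm7, which the study names; the 15 called genes in each direction with the largest change, a mean that reached 5 CPM in some group and no overlap; and in each list the called genes, or the smallest p per direction. Other genes were named after their values were seen. Promoter sequences are those of RefSeq on GRCm38.p6. No result rests on the authors' own comparisons.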

Additional observations from a re-analysis of the deposited data

Results flagged for a closer look

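In 22 of 246 groups of 5 tumors tested (8.94%), the highest or lowest tumor lay apart from the other 4 on the log2 CPM scale by Dixon's ratio. The threshold marks about 5% of samples by chance only for normal values in genes not picked by their values. Many genes here were so picked, and a tumor with 1 count beside 4 with 0 is always flagged. The share of flags is thus no measure of an excess. Of these, 7 were B1/P/Rbf tumor 4, which had 0.507 CPM of AW551984, 0.0761 CPM of Cfap43, 0.507 CPM of Deup1, 0.0761 CPM of Nek5, 3.91 CPM of Reg3g and 13.5 CPM of Tmem173, all lowest, and 1134 CPM of Mki67, a proliferation marker, the highest. B1/P/Rbf tumor 2 stood apart in 4, with 106 CPM of Erbb2 and 3.64 CPM of Stard4, both lowest, and 1.70 CPM of Drd2 and 0.027 CPM (1 count) of C130046K22Rik, both highest. B1/P/Rbf tumor 1 had the highest Tnfsf11, at 1.45 CPM.

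P/Rbf tumor 3 stood apart in 5, with the lowest Irf7 (14.7 CPM), Isg15 (19.4 CPM) and Stard4 (13.0 CPM) and the highest Rpl32 (512 CPM) and Hs3st5 (0.0253 CPM, where the other 4 had 0). P/Rbf tumor 5 had the lowest Heph (0.102 CPM) and the highest Kit (87.3 CPM) and Grm8 (0.034 CPM, where the other 4 had 0). P/Rbf tumor 1 had 8116 CPM of Met, the highest, and P/Rbf tumor 4 had 42.4 CPM of Tnfrsf12a, the lowest.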

How the results depend on the processing

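The count of 54 called genes (42 higher, 12 lower) was 1014 (587 and 427) with DESeq2, 26 (21 and 5) with limma-voom, 3 (3 and 0) with the strict filter of log2 CPM, 0 (0 and 0) with only the 10 tumors, 5 (3 and 2) with the library-set term and 293 (185 and 108) at an adjusted p of 0.10. It was 75 without TMM factors and 58 without a filter. With 1 tumor left out it ran from 8 to 131, the higher genes from 6 to 95 and the lower genes from 2 to 36. The cause was not tested, except that the strict filter kept only 4551 genes and the fit of 10 tumors had fewer samples.

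The Brca1 log2 fold change passed with DESeq2 (−1.42, adjusted p = 0.00841). Of list medians, 283 values stayed within the spread between tumors and 23 did not. With the library-set term these were 0.18 for homologous recombination, 0.42 for replication, 0.17 for RB and E2F, 0.10 for mitotic, 0.85 for hormone-sensing, −0.56 for progenitor, −2.24 for interferon, −1.15 for antigen presentation, −0.997 for cytokine, −0.60 for ErbB, MET and FGF, −0.64 for lysosomal and 0.20 for spliceosome genes. With the strict filter they were 0.11 for end joining, 0.34 for excision repair, 0.21 for replication, 0.078 for RB and E2F, −0.46 for progenitor and 0.14 for spliceosome genes. With limma-voom they were −0.016 for RB and E2F, −0.42 for progenitor and −0.029 for lysosomal genes. With 1 tumor left out the progenitor median ran from −0.52 to 0.41. Within 20 Mb of Brca1 2 genes were called in place of 1.

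Over 122 named genes, 1528 values kept their side of the threshold, 434 lost and 39 gained it, and 0 turned direction past it. On chromosome 14 from 0 to 70 genes were called. No paired analysis was possible because the labels give the groups no shared replicate numbers. What depth limits was not tested beyond the counting intervals given for genes with few counts.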
